A study of Mus musculus with 13 samples.

Results

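The collagen genes of the liver were examined in male C57BL/6N wildtype mice treated with streptozotocin (STZ) and in mock-treated mice. Collagen genes were taken as all genes whose symbol is Col, a number, the letter a and a number, measured by a probe set that the platform annotation ties to 1 gene. Where a gene had more than 1 such probe set, the brightest was kept. The rule gave 44 collagen genes of 19938 named genes, and all 44 symbols were found in the RefSeq mouse table. STZ is a glucose analogue that is toxic to pancreatic beta cells and is used to make mice insulin deficient. The 6 STZ mice had received 65 mg/kg intraperitoneally on 5 consecutive days at an age of 10 to 16 weeks, and the 7 control mice a mock injection of citrate buffer. Mice were killed 9 to 11 weeks after treatment, when 5 to 6 months old, and liver total RNA of each mouse was hybridised to 1 Affymetrix array. The series design text describes the controls by a standard diet instead. No transgene or deletion was named in the labels for either group.

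Collagens are secreted proteins that contain a triple helix of 3 polypeptide chains. Fibrillar collagens such as types I and III form the fibrils of scar and portal tissue, and type IV collagen forms the mesh of basement membranes. In liver, hepatic stellate cells and portal fibroblasts are known as the main makers of fibrillar collagen, and fibrosis is scored by its deposition. Hepatocytes make up most of the tissue. In whole liver RNA, fewer cells of a type and less RNA per cell cannot be told apart.

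Col27a1, a fibrillar collagen gene known from cartilage, was the 1 collagen gene that passed the test. Its promoter is shown with those of Col1a2 and Col3a1, which encode chains of the major liver fibrils and did not pass. The windows are the 250 bases before the RefSeq start in the GRCm38.p6 build, given 5′ to 3′ on the gene's strand, which is the plus strand for all 3. The Col27a1 window lies at chr4:63215162-63215411, the Col1a2 window at chr6:4505368-4505617 and the Col3a1 window at chr1:45311288-45311537. Capitals mark the TATA box letters TATAAA, the CCAAT box letters CCAAT and the GC box letters GGGCGG, each searched on both strands.
Col27a1: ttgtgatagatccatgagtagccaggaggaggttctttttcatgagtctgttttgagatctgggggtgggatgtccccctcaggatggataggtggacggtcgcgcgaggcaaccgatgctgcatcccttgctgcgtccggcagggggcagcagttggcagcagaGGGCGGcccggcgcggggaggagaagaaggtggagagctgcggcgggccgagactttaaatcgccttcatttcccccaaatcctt
Col1a2: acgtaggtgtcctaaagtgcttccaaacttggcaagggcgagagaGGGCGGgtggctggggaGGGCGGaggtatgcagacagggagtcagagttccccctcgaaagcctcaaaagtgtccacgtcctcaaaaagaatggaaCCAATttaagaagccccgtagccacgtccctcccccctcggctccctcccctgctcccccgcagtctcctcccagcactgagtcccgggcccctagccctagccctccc
Col3a1: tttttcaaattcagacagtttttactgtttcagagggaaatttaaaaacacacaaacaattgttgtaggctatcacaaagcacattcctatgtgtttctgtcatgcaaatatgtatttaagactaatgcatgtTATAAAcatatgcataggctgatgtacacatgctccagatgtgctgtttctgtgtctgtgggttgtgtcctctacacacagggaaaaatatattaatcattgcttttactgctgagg
The Col27a1 window held 1 GC box and 0 TATA or CCAAT boxes, at a GC content of 59.6%. The Col1a2 window held 2 GC boxes and 1 CCAAT box at 62% GC, and the Col3a1 window 1 TATA box at 35.2% GC. Over all 32851 RefSeq promoter windows of the same length, 12.4% held the TATA letters, 33.8% the CCAAT letters and 32.7% the GC box letters. A match describes the letters only.

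Few collagen genes differed between the groups. Of 44, 0 were higher and 1 was lower in STZ livers at an adjusted p under 0.05 in limma, a linear model with moderated variances fitted to all 19938 genes. This was 2.27% of the collagens, against 9.12% of all genes (1819), of which 5.09% were higher and 4.04% lower. At an unadjusted p under 0.05 there were 2 collagens (Col27a1 and Col5a3) of 44, against 20.8% of all genes. The STZ and control values did not overlap for 1 of 44 collagens, against 3.86% of all genes. The differences, STZ minus control on the log2 intensity scale, were positive for 24 collagens and negative for 20. Their median was 0.01 with a range of -0.28 to 0.16, beside a median of -0.01 over all genes. The median standard error (SE) was 0.0668 for collagens and 0.0691 for all genes. For 42 of 44 collagens the 95% interval of the difference lay within a 1.25-fold change either way. The exceptions were Col27a1 and Col8a1, and 4046 of all genes had an interval that reached beyond this bound.

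**Figure D1:**
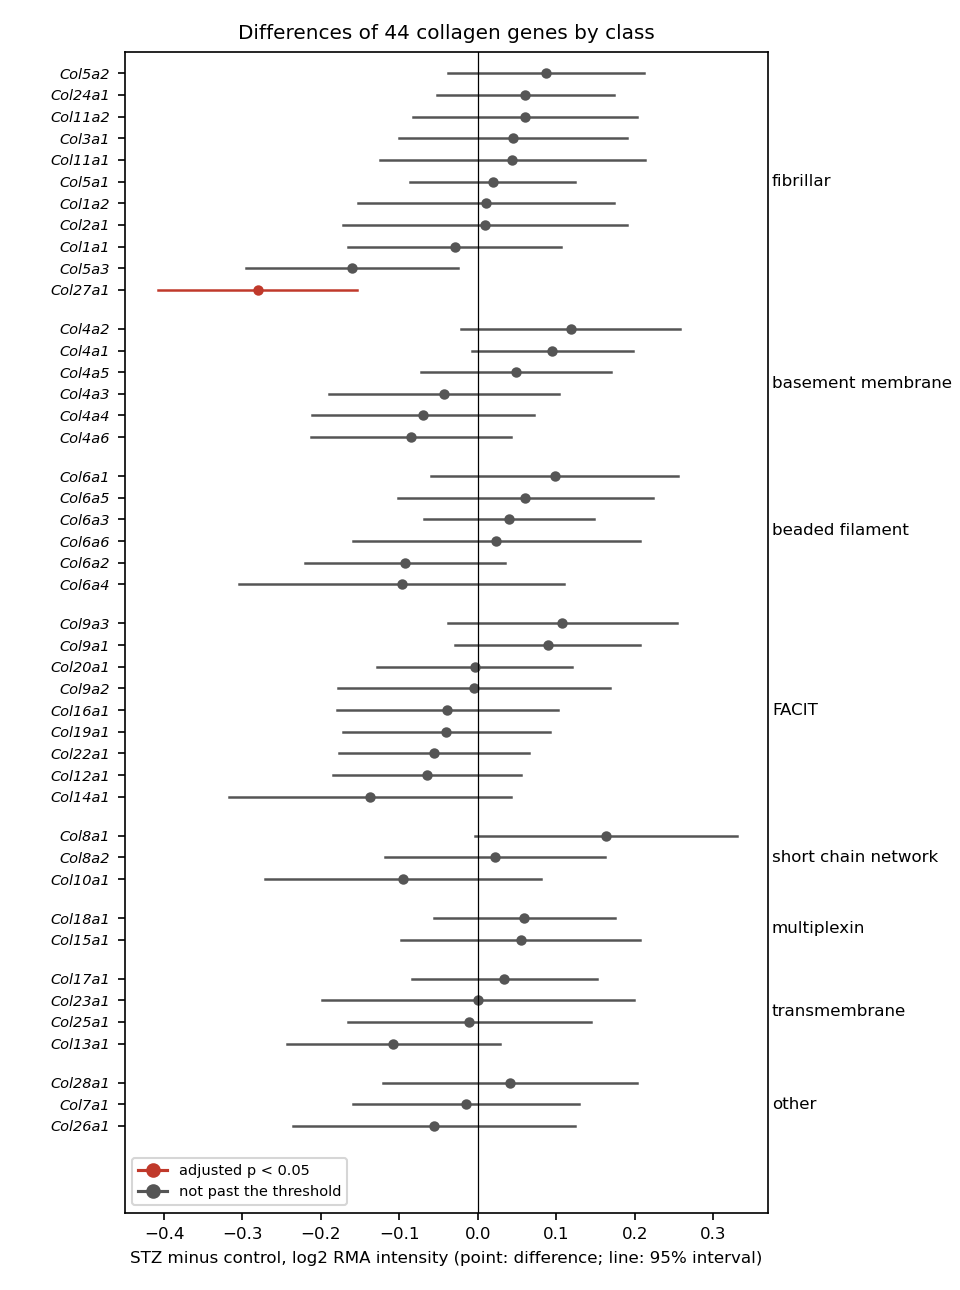
Difference between STZ and control livers for each of the 44 collagen genes, grouped by class, on the log2 intensity scale (x axis). Points are differences (6 STZ minus 7 control arrays) and lines their 95% intervals; Col27a1, in red, is the 1 gene with an adjusted p under 0.05, at -0.28.

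Col27a1 fell in STZ livers. Its log2 intensity in the 6 STZ arrays was 7.331 at the lowest, 7.60 at the median and 7.705 at the highest, against 7.779, 7.85 and 7.988 in the 7 control arrays. Every STZ mouse was below every control mouse, and STZ replicate 4 was the lowest of all. The mean was 7.58 ± 0.13 in STZ livers and 7.86 ± 0.07 in control livers (SD, n = 6 and n = 7). The difference was -0.28 ± 0.06 (SE) with a 95% interval of -0.41 to -0.15, which is a fold of 0.823 (0.754 to 0.899), adjusted p = 0.00663 in limma. Without STZ replicate 4 the difference was -0.23 (adjusted p = 0.0106), and the call was kept in all 20 alternatives (adjusted p = 0.00416 to 0.0302).

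The gene Mir455 lies within Col27a1 in RefSeq and has a probe set of its own. Its mature products are shown because they share the host gene's locus, in the GRCm38.p6 build on the plus strand, with the seed (bases 2 to 8) in capitals. The 5p arm lies at chr4:63256867-63256888 and the 3p arm at chr4:63256904-63256924, and their seeds differ.
mmu-miR-455-5p: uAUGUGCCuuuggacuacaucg
mmu-miR-455-3p: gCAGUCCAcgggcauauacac
The Mir455 probe set averaged 7.12 ± 0.17 in STZ livers and 7.20 ± 0.07 in control livers, a difference of -0.09 ± 0.07 (SE) that did not pass (adjusted p = 0.553 in limma). These arrays do not separate the mature arms from their precursor. Of the 10 measured genes nearest to Col27a1 on chromosome 4, 5 on either side, 2 passed, beside 9.12% of all genes. Both are acute phase genes of hepatocytes, and both were higher. Orm2 averaged 11.85 ± 0.75 in STZ livers and 8.94 ± 0.26 in control livers, a difference of 2.90 ± 0.25 (adjusted p = 2.51e-06 in limma). Orm3 averaged 9.72 ± 1.03 in STZ livers and 6.99 ± 0.36 in control livers, a difference of 2.73 ± 0.34 (adjusted p = 0.000107). Their neighbour Orm1 differed by 0.12 ± 0.07 and did not pass (adjusted p = 0.356). The Orm genes are related copies, so their probe sets may read each other's RNA. The other 7 neighbours differed by -0.17 (Rgs3) to 0.06 (Akna), and none passed.

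**Figure D2:**
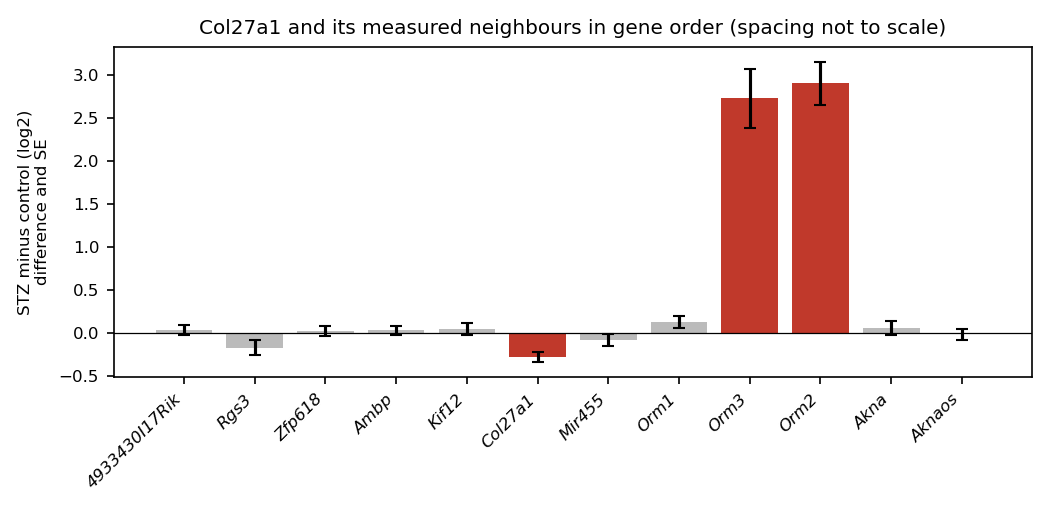
Difference between STZ and control livers for Col27a1, Mir455 inside it and the 10 nearest measured genes on chromosome 4, in gene order and not to scale (y axis: STZ minus control on the log2 intensity scale, bars with SE). Bars in red passed at an adjusted p under 0.05: Col27a1 at -0.28, Orm3 at 2.73 and Orm2 at 2.90.

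The 3 chains of the major liver fibrils did not pass. Col1a1 encodes the alpha 1 chain of type I collagen. It had 7.428, 7.71 and 7.799 as lowest, median and highest value in STZ livers, against 7.627, 7.715 and 7.807 in control livers. The groups overlapped, and the difference was -0.03 ± 0.06 (SE), with a 95% interval of -0.17 to 0.11. Col1a2 encodes the other type I chain. It had 7.264, 7.50 and 7.844 in STZ livers, against 7.405, 7.531 and 7.613 in control livers, with a difference of 0.01 ± 0.08. The STZ livers held both the highest and the lowest value. Col3a1, the type III chain, had 7.018, 7.19 and 7.485 in STZ livers, against 7.071, 7.145 and 7.278 in control livers, with a difference of 0.05 ± 0.07. Adjusted p was 0.870 for Col1a1, 0.965 for Col1a2 and 0.797 for Col3a1 in limma. Their differences were small enough to change sign when 1 array was left out, which STZ replicate 3 did for Col1a1 (0.02), STZ replicates 1 and 2 and control replicate 6 for Col1a2 (-0.05, -0.02 and -0.01) and STZ replicate 1 for Col3a1 (-0.01).

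Of the 11 fibrillar genes 1 passed (Col27a1, 9.09%), near the 9.12% of all genes. Their median difference was 0.02, with 8 positive and 3 negative. Col5a3, a minor chain of type V collagen, had 6.764, 6.90 and 7.044 in STZ livers, against 6.899, 7.069 and 7.198 in control livers. Its difference of -0.16 ± 0.06 (SE) was the second most negative of the class and did not pass (adjusted p = 0.146). The type V chains Col5a1 and Col5a2, which help to start type I fibrils, differed by 0.02 and 0.09. The remaining fibrillar genes Col2a1, Col11a1, Col11a2 and Col24a1 differed by 0.01 to 0.06. The other collagens known from cartilage were Col2a1, Col9a1 to Col9a3, Col10a1, Col11a1 and Col11a2, a grouping chosen after their values were seen. Their levels lay between 5.01 and 7.61, and 0 of 7 passed, beside 9.12% of all genes. In control livers Col2a1 averaged 7.20 and Col9a3 7.56, beside 7.18 for Col3a1 and 7.53 for Col1a2. How much of any of these values is non-specific signal was not tested, which limits the reading of small differences.

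Of the 6 basement membrane genes, which encode the chains of type IV collagen, 0 passed, beside 9.12% of all genes. A class of 6 is too small to set 0 calls apart from that share. Differences were positive for 3 and negative for 3 of these genes, with a median of 0.00281. Col4a1 and Col4a2 encode the chains found in most basement membranes. Col4a1 had 7.184, 7.29 and 7.358 in STZ livers, against 7.101, 7.21 and 7.267 in control livers, a difference of 0.09 ± 0.05 (SE, adjusted p = 0.288 in limma). Col4a2 had 6.941, 7.07 and 7.27 in STZ livers, against 6.779, 7.015 and 7.104 in control livers, a difference of 0.12 ± 0.07 (adjusted p = 0.339). Both pairs of groups overlapped. Col4a3 to Col4a6, known from kidney and other specialised membranes, differed by -0.09 to 0.05.

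Whether fibrillar and basement membrane genes differed in their response was tested on 6 pairs of single genes. For each array the level of Col4a1 or Col4a2 was subtracted from that of Col1a1, Col1a2 or Col3a1. These within-array differences were compared between groups by an exact 2-sided permutation test over all 1716 assignments, whose smallest p is 0.000583. The within-array difference Col1a1 minus Col4a2 averaged 0.59 ± 0.09 in STZ livers and 0.74 ± 0.12 in control livers, a change of -0.15 (exact permutation p = 0.0367, adjusted over the 6 pairs p = 0.189). Col1a1 minus Col4a1 averaged 0.39 ± 0.16 in STZ livers and 0.51 ± 0.08 in control livers, a change of -0.12 (exact permutation p = 0.0629, adjusted p = 0.189). The pairs with Col1a2 changed by -0.08 and -0.11 and those with Col3a1 by -0.05 and -0.07 (adjusted exact permutation p = 0.508 for each). Changes were negative in 6 of 6 pairs, which share genes and arrays, and none passed.

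**Figure D3:**
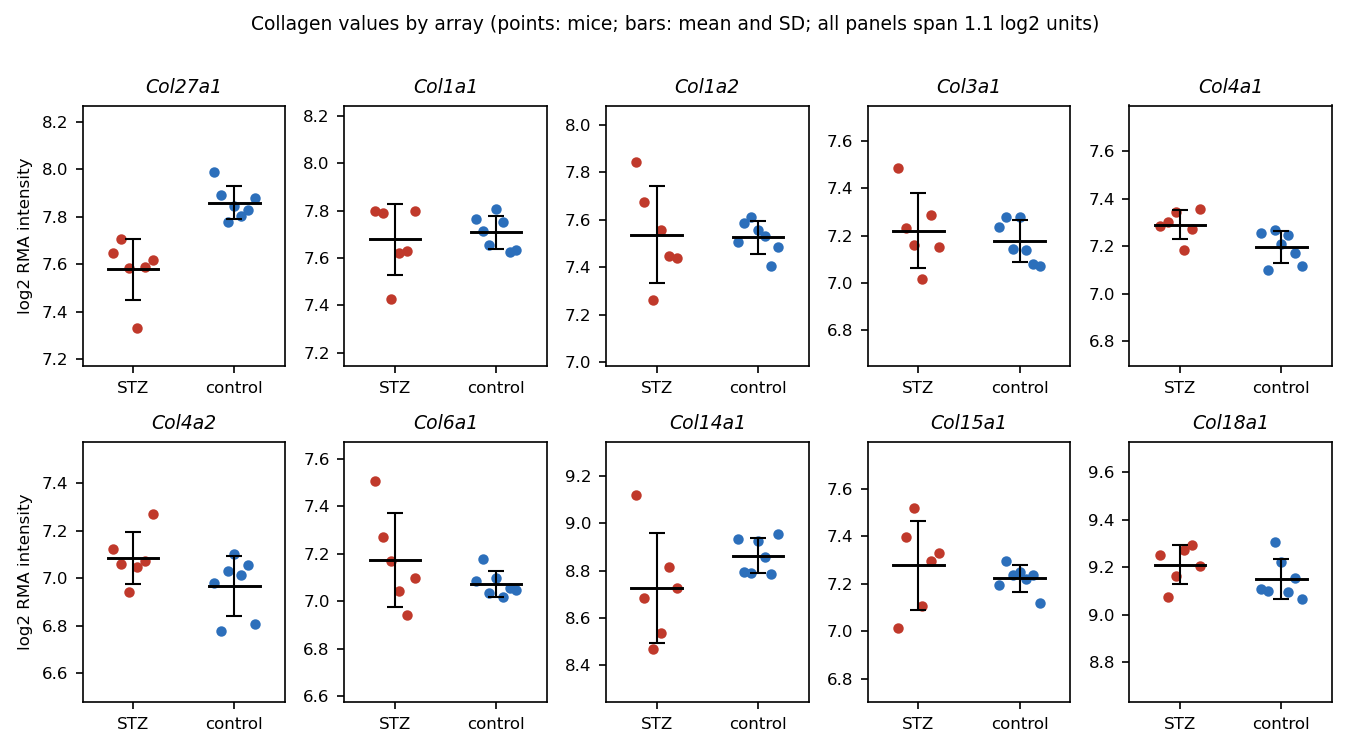
Log2 intensity (y axis) of Col27a1 and 9 collagen genes described whatever their result, in 6 STZ (left) and 7 control livers (right of each panel). Points are mice and bars the mean and SD; the groups are apart in the Col27a1 panel and overlap in the other panels.

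The 27 genes that are neither fibrillar nor basement membrane collagens had a median difference of -0.00386, with 13 positive and 14 negative. Of these 27, 0 passed, beside 9.12% of all genes. The counts of the classes were not tested against each other. Col18a1, a multiplexin of basement membranes whose C-terminal fragment is endostatin, did not pass. It had 9.073, 9.23 and 9.294 in STZ livers, against 9.067, 9.11 and 9.307 in control livers, a difference of 0.06 ± 0.05 (SE, adjusted p = 0.616 in limma). The other multiplexin, Col15a1, had 7.015, 7.31 and 7.52 in STZ livers, against 7.117, 7.24 and 7.298 in control livers, a difference of 0.05 ± 0.07 (adjusted p = 0.756). The STZ values lay on both sides of the control range. The difference was 0.01 without STZ replicate 3, 0.03 without STZ replicate 2, 0.11 without STZ replicate 1 and 0.09 without STZ replicate 4.

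Col14a1 belongs to the FACIT class, collagens that attach to the surface of fibrils. It had 8.468, 8.71 and 9.12 in STZ livers, against 8.784, 8.86 and 8.956 in control livers. STZ replicate 1 was above every control and 4 of the STZ mice were below every control. The difference of -0.14 ± 0.08 (SE) did not pass (adjusted p = 0.401). It was -0.22 (adjusted p = 0.0595) without STZ replicate 1 and -0.09 (adjusted p = 0.631) without STZ replicate 3. The 9 FACIT genes had a median difference of -0.04, with 2 positive and 7 negative. Col6a1, a chain of the beaded microfilaments of type VI collagen, had 6.943, 7.13 and 7.506 in STZ livers, against 7.018, 7.06 and 7.18 in control livers, a difference of 0.10 ± 0.07 (adjusted p = 0.522). Without STZ replicate 1, which held the highest value, the difference was 0.03. The 6 type VI genes ranged from -0.10 (Col6a4) to 0.10 (Col6a1), with a median of 0.03. Col6a5 and Col6a6 each had a second, dimmer probe set, which differed by 0.16 and -0.02 (unadjusted p = 0.0259 and 0.776 in limma). The kept Col6a5 probe set differed by 0.06 (unadjusted p = 0.458 in the same fit).

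Col8a1 encodes a short chain collagen known from vessel walls and is named here because it had the highest difference of the family. It had 6.026, 6.30 and 6.433 in STZ livers, against 5.828, 6.09 and 6.273 in control livers. The difference was 0.16 ± 0.08 (SE) and did not pass (adjusted p = 0.253), though it was called at 0.26 (adjusted p = 0.0494) when only the STZ mice with label numbers 29 to 32 were used. Col8a2 and Col10a1 of that class differed by 0.02 and -0.10. The transmembrane collagens Col13a1, Col17a1, Col23a1 and Col25a1 differed by -0.11 to 0.03, and Col7a1, Col26a1 and Col28a1 by -0.06 to 0.04.

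The STZ livers varied more than the control livers in many collagen genes, as they did in most genes. The SD of the STZ arrays was larger for 31 of 44 collagens (70.5%), against 61.6% of all genes. The median SD was 0.145 in STZ livers and 0.0908 in control livers for collagens, and 0.129 in STZ livers and 0.112 in control livers for all genes. STZ replicate 2 held the highest STZ value for 30 of 44 collagens, and STZ replicates 4 and 5 the lowest for 15 and 18. Control replicates 6 and 7 held the lowest control value for 17 and 15. The mean deviation of an array from its group, over the 44 collagens, was 0.15 in STZ replicate 2, -0.10 in STZ replicate 4 and -0.11 in STZ replicate 5, and -0.08 in control replicates 6 and 7. The lower quartile of all probe sets lay between 4.87 and 4.99 in the 13 arrays. Their median followed a similar order. Among STZ arrays it was highest in replicate 2 (6.309) and lowest in replicates 4 (6.249) and 5 (6.219). Among control arrays it was lowest in replicates 6 (6.245) and 7 (6.2375). Counts of highest and lowest arrays were not made over all genes, and whether the collagen deviations are array-wide was not tested. Without STZ replicate 2, the difference of Col27a1 was -0.31.

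Pairs of chains were compared over the 13 arrays as deviations from their group means, for 10 pairs. The chains build the same molecule or have genes that lie head to head. The exceptions are Col3a1 with Col1a1 and with Col1a2, which were paired as chains of the major liver fibrils. After adjustment over the 10, 2 pairs passed for Pearson r and 8 did not, and 1 passed for Spearman rho and 9 did not. Col1a1 and Col1a2 had a Pearson r of 0.681 (permutation p = 0.0511, adjusted p = 0.170) and a Spearman rho of 0.528 (permutation p = 0.105, adjusted p = 0.150), and r was 0.680 without the 2 arrays farthest from the median of Col1a1. Col4a1 and Col4a2, which share a promoter region, had an r of 0.547 (permutation p = 0.0720, adjusted p = 0.180) and a rho of 0.560 (permutation p = 0.0644, adjusted p = 0.147), and r was 0.398 without the 2 farthest arrays. The pairs Col4a3 and Col4a4 (r = 0.647, rho = 0.806) and Col9a1 and Col9a2 (r = 0.745, rho = 0.681) passed for r at adjusted permutation p = 0.0386 each. For rho, Col4a3 and Col4a4 passed (adjusted permutation p = 0.0108) and Col9a1 and Col9a2 did not (adjusted permutation p = 0.0853). Their r was 0.580 and 0.661 without the 2 farthest arrays. Of the pairs that did not pass, r was 0.589 for Col1a2 and Col3a1 and 0.503 for Col1a1 and Col3a1. It was 0.284 for Col6a1 and Col6a3, 0.279 for Col5a1 and Col5a2, 0.211 for Col4a5 and Col4a6 and 0.0910 for Col6a1 and Col6a2. After the array mean over the collagens was subtracted, r was 0.143 for Col4a3 and Col4a4 and 0.0727 for Col9a1 and Col9a2, against 0.491 for Col1a1 and Col1a2 and 0.616 for Col4a1 and Col4a2.

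In 3 of 5 lists of genes that handle collagen or signal to the cells that make it, the share called was above the 9.12% of all genes. With the replicate number as a block it was 2 of 5. Then 1 of 17 TGF-beta and PDGF genes (5.88%) was called, against 6.30% of all genes. It was 4 of 5 without STZ replicate 3, and also with only the STZ mice numbered 29 to 32. Among genes brighter than the median gene, fitted alone, 18.6% were called and 3 of 5 lists lay above that share. The lists were chosen with earlier results of these data known, so these shares describe the lists and test nothing. Of 9 measured genes of collagen degradation, 3 were higher and 0 lower (33.3%), with a median difference of 0.18. Mmp14, a membrane-bound protease that cuts fibrillar collagen and activates pro-Mmp2, averaged 8.28 ± 0.26 in STZ livers and 7.73 ± 0.11 in control livers, a difference of 0.55 ± 0.10 (SE, adjusted p = 0.00163 in limma). Mmp2, a gelatinase, averaged 7.68 ± 0.12 in STZ livers and 7.35 ± 0.04 in control livers, a difference of 0.33 ± 0.05 (adjusted p = 0.000883). Ctsl, a lysosomal cysteine protease, differed by 0.41 ± 0.09 (adjusted p = 0.00838), and its call was lost in the exact rank-sum test (adjusted p = 0.0628). The mean of the 9 genes per array was 6.48 to 6.75 in STZ livers and 6.29 to 6.42 in control livers.

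Of 14 measured genes of procollagen processing and cross-linking (16 listed), 4 were higher and 0 lower (28.6%), with a median difference of 0.05. Lum and Dcn encode small leucine-rich proteoglycans that bind fibrils. Lum had 6.425, 6.85 and 7.351 as lowest, median and highest value in STZ livers, against 5.829, 6.05 and 6.104 in control livers, with no overlap, and differed by 0.86 ± 0.13 (SE, adjusted p = 0.000373 in limma). Dcn averaged 11.99 ± 0.16 in STZ livers and 11.64 ± 0.03 in control livers, a difference of 0.35 ± 0.06 (adjusted p = 0.00182). Pcolce, an enhancer of procollagen cleavage, differed by 0.29 ± 0.08 (adjusted p = 0.0260), and Pxdn, a peroxidase that links type IV collagen, by 0.28 ± 0.08 (adjusted p = 0.0324). The call of Pcolce was lost without control replicate 1, 3 or 5 or STZ replicate 1 or 6 (0.24 to 0.28, adjusted p = 0.0530 to 0.0658). That of Pxdn was lost without control replicate 1 or 7 or STZ replicate 1, 3, 4 or 6 (0.26 to 0.28, adjusted p = 0.0625 to 0.0710).

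Of 18 measured genes of collagen folding and modification (19 listed), which hydroxylate, glycosylate and fold the chains in the endoplasmic reticulum, 0 were higher and 1 was lower (5.56%), with a median difference of 0.03. Colgalt2, a galactosyltransferase of collagen hydroxylysine, averaged 5.63 ± 0.11 in STZ livers and 5.95 ± 0.16 in control livers, a difference of -0.32 ± 0.08 (SE, adjusted p = 0.0127 in limma). Its call was lost in the rank-sum test (adjusted p = 0.0874). Of 10 measured collagen receptors (11 listed), 0 passed in limma, and 1 had an unadjusted p under 0.05. That was Lair1, an inhibitory receptor of immune cells, with a difference of 0.36 ± 0.13 (adjusted p = 0.107), which passed without STZ replicate 3 (0.45, adjusted p = 0.0308).

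Of 17 measured genes of TGF-beta and PDGF signalling (18 listed), pathways known to drive collagen synthesis in stellate cells, 3 were higher and 0 lower (17.6%), with a median difference of 0.12. Ccn2, a matrix protein induced by TGF-beta, averaged 8.84 ± 0.31 in STZ livers and 8.25 ± 0.25 in control livers, a difference of 0.59 ± 0.13 (SE, adjusted p = 0.00901 in limma). Tgfbr2, a TGF-beta receptor, differed by 0.34 ± 0.09 (adjusted p = 0.0252), and Pdgfra, a PDGF receptor, by 0.25 ± 0.07 (adjusted p = 0.0236). The call of Tgfbr2 was lost without control replicate 3 or 4 or STZ replicate 2 or 4 (0.27 to 0.32, adjusted p = 0.0519 to 0.0585), and that of Pdgfra without STZ replicate 1 (0.23, adjusted p = 0.0599). Pdgfra also lost its call in the exact rank-sum test (adjusted p = 0.0628). The mean of the 17 genes per array was 7.52 to 7.63 in STZ livers and 7.36 to 7.47 in control livers.

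Markers of collagen-making cells were measured beside these lists, and their counts are read beside the 9.12% of all genes called. Of the genes brighter than the median gene, fitted alone, 18.6% were called. In that fit the counts were 2 of 9 stellate cell (22.2%), 0 of 4 myofibroblast, 0 of 4 portal fibroblast and 0 of 2 mesothelial markers. They were 1 of 10 endothelial, 5 of 7 Kupffer cell, 0 of 1 bile duct and 3 of 7 hepatocyte markers. Of 12 stellate cell markers, 2 were higher and 1 lower (25%). Hhip differed by 0.48 ± 0.11 (SE, adjusted p = 0.0137 in limma), Rgs5, also known from pericytes, by 0.46 ± 0.11 (adjusted p = 0.0134), and Lrat, the enzyme that stores retinol in quiescent stellate cells, by -0.47 ± 0.08 (adjusted p = 0.00138). The call of Hhip was lost in the exact rank-sum test (adjusted p = 0.0628). The mean of the list per array was 7.67 to 7.91 in STZ livers and 7.60 to 7.71 in control livers. Of 8 markers of activated myofibroblasts, 1 was higher (12.5%, near the share of all genes), and all 8 differences were positive (median 0.15). An unadjusted p under 0.05 in limma was found for 3 of 8, beside 20.8% of all genes. The called gene was Timp1, an inhibitor of matrix proteases (0.34 ± 0.08, adjusted p = 0.0128 in limma). Its level was low, 5.27 ± 0.17 in STZ and 4.93 ± 0.14 in control livers, where the lower quartile of gene levels was 5.34. Its call was lost in the exact rank-sum test (adjusted p = 0.0874). Without STZ replicate 3, 2 myofibroblast markers were called. Acta2, the defining smooth muscle actin, averaged 8.57 ± 0.61 in STZ livers and 8.21 ± 0.42 in control livers. The Acta2 difference of 0.36 ± 0.24 (SE) did not pass (adjusted p = 0.448 in limma). The mean of that list was 6.75 to 7.27 in STZ livers and 6.72 to 7.13 in control livers. Of 8 portal fibroblast markers 0 passed in limma and 0 had an unadjusted p under 0.05, the smallest p being that of Msln (-0.12 ± 0.06, adjusted p = 0.302), which is also 1 of the 6 mesothelial markers, of which 0 passed and 0 had an unadjusted p under 0.05. The list means were 6.43 to 6.64 in STZ livers and 6.47 to 6.61 in control livers for portal fibroblasts, and 6.50 to 6.75 in STZ livers and 6.59 to 6.69 in control livers for mesothelial cells.

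Of 8 Kupffer cell markers, genes of the resident macrophages of the liver, 4 were higher (50%), namely Cd5l (0.62 ± 0.15, adjusted p = 0.0132 in limma), Vsig4 (0.41 ± 0.11, adjusted p = 0.0216), C1qa (0.35 ± 0.09, adjusted p = 0.0273) and Clec4f (0.31 ± 0.08, adjusted p = 0.0257). The list mean was 8.65 to 9.27 in STZ livers and 8.52 to 8.94 in control livers. The number called was 2 without control replicate 7 or without STZ replicate 1 or 4, and 1 without STZ replicate 6. It was 6 without control replicate 3 or without STZ replicate 3, and 0 in the exact rank-sum test. Of 10 sinusoidal endothelial markers 1 was higher (10%, near the share of all genes and below the 18.6% of genes brighter than the median gene). That was Lyve1, a hyaluronan receptor (0.50 ± 0.11, adjusted p = 0.00967 in limma), whose call was lost in the exact rank-sum test (adjusted p = 0.0628). The list mean was 9.11 to 9.20 in STZ livers and 9.00 to 9.13 in control livers. Of 7 measured bile duct markers 0 passed in limma and 2 had an unadjusted p under 0.05, the smallest being that of Epcam (0.26 ± 0.08, adjusted p = 0.0644), which passed without control replicate 1 or 4 or STZ replicate 3 (0.30 to 0.32, adjusted p = 0.0206 to 0.0447). Without control replicate 4, 2 bile duct markers were called. The list mean was 6.03 to 6.35 in STZ livers and 5.95 to 6.24 in control livers.

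Of 7 measured hepatocyte markers 2 were lower (28.6%), the plasma protein genes Apoa1 (-0.23 ± 0.06, adjusted p = 0.0158 in limma) and Ttr (-0.18 ± 0.05, adjusted p = 0.0402), the second losing its call without any 1 of the 7 control replicates or STZ replicate 1, 2, 4 or 6 (-0.19 to -0.15, adjusted p = 0.0544 to 0.0996). The call of Apoa1 was lost in the exact rank-sum test (adjusted p = 0.0628). The hepatocyte list mean was 13.12 to 13.24 in STZ livers and 13.15 to 13.23 in control livers. The part of any of these cell types in the collagen values was not tested.

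**Figure D4:**
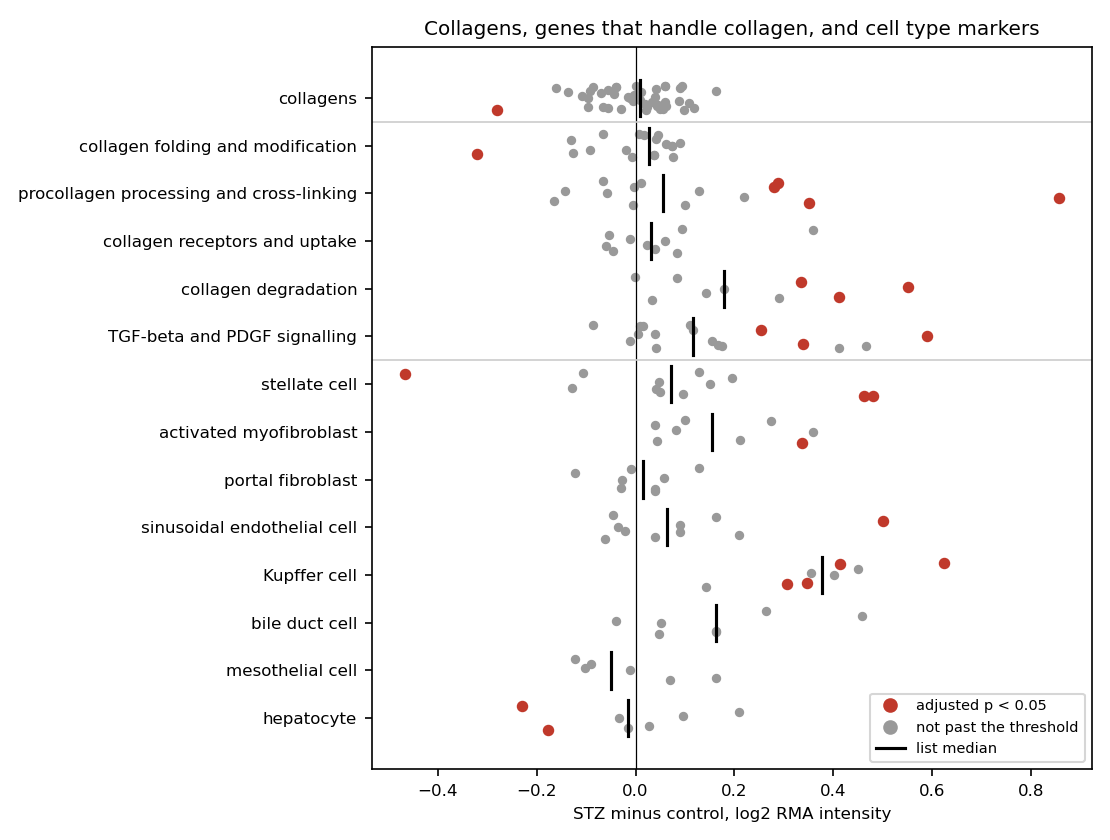
Difference between STZ and control livers (x axis, log2 intensity) for each gene of the collagen family, the 5 lists of genes that handle collagen or signal to collagen-making cells, and 8 lists of cell type markers. Points are genes, red where the adjusted p was under 0.05, and vertical lines are list medians, which run from -0.05 for the mesothelial markers to 0.38 for the Kupffer cell markers, with 0.01 for the collagens.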

How the data were processed

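Liver RNA of 6 STZ and 7 control mice was measured on Affymetrix arrays, and the labels call the arrays of a group biological replicates. The authors deposited 1 log2 intensity per array for each of 35556 probe sets. Per the submitters' processing notes, the tools were RMA (robust multi-array average) and version 1.2 of Affymetrix Expression Console. RMA brings the arrays to a common distribution, so a change in total RNA is not seen, and the genome build of the annotation is not given in the sources used here. Array medians were 6.22 to 6.31 and all values 2.70 to 14.1. Arrays have no read depth, their number limits the precision, and low values carry no detection call.

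Of the probe sets, 21789 had 1 gene symbol, 1621 several and 12146 none, and the brightest per gene was kept (19938 genes, 999 with several). STZ minus control was fitted on log2 values with limma 3.58.1 in R 4.3.3 (lmFit, eBayes, 11 residual degrees of freedom, 2-sided), with Benjamini-Hochberg adjustment over all genes and a threshold of 0.05. The fit was tested on simulated data. Gene pairs were compared by exact permutation, and correlations by 100000 permutations within groups in SciPy 1.17.1. Promoters (35 of 44 matched) and miRNAs are from RefSeq, GRCm38.p6. Members, classes, lists and tests were chosen with earlier results of these data known. In full are named each collagen that passed and Col1a1, Col1a2, Col3a1, Col4a1, Col4a2, Col6a1, Col14a1, Col15a1 and Col18a1, and from other lists up to 4 passing genes or the one with the smallest p. Alternatives were a filter on dim genes, the mean probe set, trend and robust variances, an exact rank-sum test, array centring, the replicate number as a block, the STZ mice numbered 29 to 32 only, and leaving out each array. No batch is given in the sources used here, so a batch that followed the groups cannot be told apart from the treatment.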

Additional observations from a re-analysis of the deposited data

Results flagged for a closer look

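Single arrays that lay far from the rest of their group were looked for by Dixon's test in 138 groups, of which 88 were collagens in STZ or in control livers. It marked 9, of which 5 were collagens, and chance marks about 1 in 20 groups. Among the collagens, Col27a1 was lowest in STZ replicate 4 (7.331, the nearest STZ value being 7.585) and Col28a1 highest in STZ replicate 2 (5.956, the nearest being 5.617). In control livers, Col4a5 was lowest in replicate 4 (5.806, nearest 5.927), Col6a6 was lowest in replicate 6 (7.126, nearest 7.47) and Col17a1 was highest in replicate 1 (6.547, nearest 6.49). Col27a1 is the 1 called gene among these, and its values without that array stand with its result. Among the other named genes, Mmp2 was highest in STZ replicate 4 (7.9, nearest 7.683) and Rgs5 in STZ replicate 1 (8.551, nearest 7.935). In control livers, Pcolce was highest in replicate 7 (7.966, nearest 7.769) and Ctsl lowest in replicate 2 (11.712, nearest 11.968).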

How the results depend on the processing

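Over the 20 alternatives, 1 collagen gene was lower each time, with Col27a1 at -0.31 to -0.23 when 1 array was left out. The count of collagens higher was 0, or 1 (Col8a1) with the STZ mice numbered 29 to 32. All genes called were 1088 in the exact rank-sum test, against 1819, and 1399 to 2168 when 1 array was left out. The collagen median difference was -0.03 to 0.04. Col1a2 reversed to -0.000286 after array centring. Leaving out 1 array gave -0.0535 to 0.0207 for Col1a1, -0.0506 to 0.0654 for Col1a2 and -0.00731 to 0.0861 for Col3a1, none of which passed. With the replicate block, Col27a1 differed by -0.28 (adjusted p = 0.0253), 1 collagen was lower and 1256 of all genes were called. Deviations of same-numbered mice correlated at -0.0865 to 0.187. These values alone cannot show whether the numbers pair the mice, since differently numbered mice were not set beside them. With the block, 0 of 1 folding genes, 1 of 3 TGF-beta and PDGF genes, 0 of 4 Kupffer cell and 0 of 2 hepatocyte markers kept their calls. Of the calls in each list, the rank-sum test kept 0 of 1 folding, 2 of 4 processing, 2 of 3 degradation, 2 of 3 TGF-beta and PDGF, 2 of 3 stellate cell, 0 of 1 myofibroblast, 0 of 1 endothelial, 0 of 4 Kupffer cell and 1 of 2 hepatocyte genes. With the STZ mice numbered 29 to 32 alone, 2 of 4 processing, 1 of 4 Kupffer cell and 1 of 2 hepatocyte genes kept their calls. Newly called were Marco (Kupffer cell list), Lair1 (receptors), Smad7 (TGF-beta and PDGF) and Hand2 (stellate cell). In that setting Col4a2 differed by 0.08, Col6a1 by 0.17, Col15a1 by 0.04 and Col18a1 by 0.04. The cause of these changes was not tested. Low signal limits collagens with low values, such as Col10a1 at 5.01, and other genes with low values, such as Timp1. The part of non-specific signal in collagens with higher values was not tested either.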
